A study of Mus musculus with 24 samples.

Results

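Cadherins and protocadherins are the calcium-binding adhesion proteins that neurons display on their surface. The genes described here are the 61 of 18194 genes on the array whose symbol begins with Cdh or Pcdh and carries a number, counting probe sets that name 1 gene. They comprised 5 classical type I cadherins, 11 type II cadherins, Cdh13 with its lipid anchor, 4 other cadherins, 5 cadherin-related genes, 4 delta-1 and 5 delta-2 protocadherins, 3 other non-clustered protocadherins, 22 clustered beta protocadherins and the clustered gamma gene Pcdhgc4. Each gene was represented by the probe set with the highest mean over all arrays, which involved a choice for the 28 genes with several probe sets.

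Cadherins bind partners of their own or a related type on the neighbouring cell and couple through catenins to the actin cytoskeleton. Type I cadherins such as Cdh2 (N-cadherin) hold many neural cells together, whereas type II cadherins are expressed in patches and layers of the developing brain. Clustered protocadherins are encoded by neighbouring alpha, beta and gamma gene arrays, from which each neuron transcribes a small set of variable exons. Delta protocadherins are single genes with roles in axon sorting and synapse remodelling, among them Pcdh8 (arcadlin), known for its induction by neuronal activity, and Pcdh19, a human epilepsy gene.

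Messenger RNA had been measured on 24 arrays, 2 in each of 12 groups, from neurons of embryonic day 14 mice on a C57Bl/6 background. The neurons came from the medial ganglionic eminence (MGE), the birthplace of many cortical inhibitory interneurons, or from the cortex (CTX), and were either wild-type (WT) or knockout (KO) for Npas4, an activity-induced transcription factor, among littermates. All cultures, including those at 0 h, had 10 days in vitro with overnight silencing by the sodium channel blocker TTX and the NMDA receptor blocker AP-5, and were then taken at 0, 1 or 6 h of depolarization with 55 mM KCl. The labels do not give the Npas4 allele, nor say whether 2 arrays of a group came from separate cultures or embryos, so p-values measure only the spread between these arrays. Values are log2 intensities, and a log2 difference of 1 is a doubling of intensity. Errors beside differences are standard errors (SE) of the fit with n = 2 arrays per group, and a difference was called at a Benjamini-Hochberg adjusted p under 0.05 over 12378 tested genes.

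Npas4 itself lay between 5.35 and 5.94 in every array at 0 h and reached 11.20 to 12.04 at 1 h in WT but 6.80 to 7.35 in KO cultures. At 6 h it read 8.59 to 11.84 in WT and 6.80 to 7.82 in KO cultures. The rise from 0 to 6 h in KO was 1.43 ± 0.25 in MGE and 1.98 ± 0.25 in CTX, both called. The mean of 6 interneuron markers was 13.05 to 13.27 in MGE arrays and 10.00 to 10.96 in CTX arrays, and that of 5 excitatory markers was 4.53 to 4.92 and 11.71 to 12.36. CTX cultures therefore held interneuron marker RNA, and MGE cultures had excitatory markers below the array median, which was 6.84 to 6.92. In WT at 0 h, 3 of 5 tested microglial and 3 of 6 progenitor markers were higher in MGE and 2 progenitor markers were lower. The part of these cell types in the differences between MGE and CTX was not tested. Fibroblast and meningeal markers averaged 8.15 to 9.57 in the CTX arrays numbered replicate 2 and 6.63 to 7.15 in those numbered replicate 1. The 2 arrays of MGE WT at 0 h correlated at 0.951 across genes, below the 0.965 to 0.992 of the other groups. In that group 9 of the 40 tested members lay over 2-fold apart, against 0 to 3 in each other group. Values without its replicate 2 stand beside the results where they end a call or move a fold by over 1.5 times. For genes with several probe sets, only the highest-mean set was fitted without it.

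Of the 61 members, 40 exceeded the array median in 2 or more arrays and were tested, and 27 of them did so in all 24 arrays. The other 21 ranged from 3.12 to 7.41. They included Cdh1 (E-cadherin) and Cdh5 (VE-cadherin), the epithelial and endothelial members, at 4.42 and 4.55 or below in every array. Among the clustered beta genes 15 of 22 were tested, and Pcdhb1, Pcdhb2, Pcdhb6, Pcdhb8, Pcdhb11, Pcdhb13 and Pcdhb18 stayed below the array median throughout. All 5 delta-2 protocadherins were tested, while the delta-1 gene Pcdh1 did not exceed 5.23.

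At rest, members differed between MGE and CTX cultures about as often as other genes did in WT, and more often in KO. In WT cultures at 0 h, 7 of 40 members were higher in MGE and 19 were lower, and 14 were not called. That is 65% of the tested members, against 64.2% of all genes called in this comparison, of which 34.7% were higher and 29.5% lower. The median log2 difference was -0.47 over the members and 0.11 over all genes. The same comparison in KO cultures, which uses other arrays, gave 9 higher and 16 lower members, 62.5% against 47% of all genes (26.6% higher, 20.4% lower). Of the WT calls 23 recurred there in the same direction, 88.5% of the WT list and 92% of the KO list. The recurrence over all genes is not given here, so it is open whether members recurred more often than other genes.

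**Figure D1:**
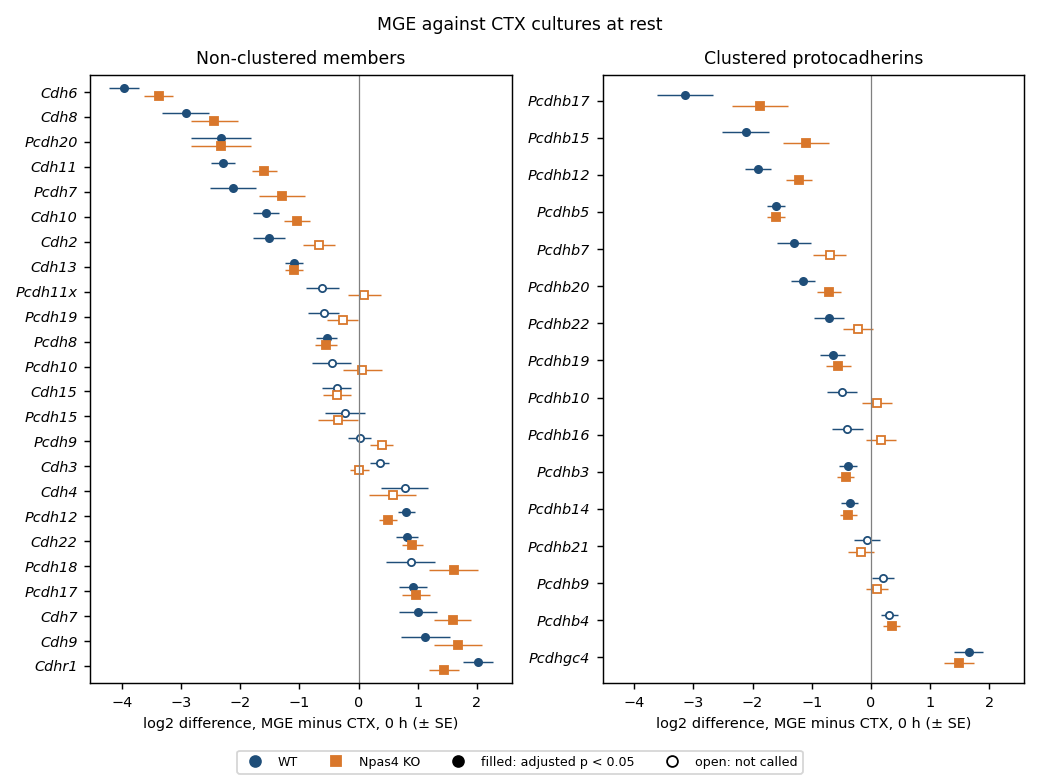
Log2 difference between MGE and CTX cultures at 0 h for the 24 non-clustered and 16 clustered members tested, in WT (circles) and Npas4 KO (squares), each from 2 against 2 arrays with its SE; filled symbols have an adjusted p under 0.05. Cdh6 lies farthest to the left at -3.96 in WT and Cdhr1 farthest to the right at 2.02, and most beta protocadherins lie left of 0.

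By their highest-mean sets, the type II cadherins differed in both directions, with 4 lower and 3 higher in MGE among 7 tested. Of all genes, 29.5% were lower and 34.7% higher in MGE WT. Cdh6, which marks subsets of cortical and striatal neurons, was 6.67 and 6.36 in the MGE WT arrays at 0 h and 10.25 and 10.70 in the CTX WT arrays. The MGE arrays were below the array median and the CTX arrays well above it, a log2 difference of -3.96 ± 0.25 (15.6-fold, adjusted p = 3.8e-08). In KO cultures the difference was -3.38 ± 0.25.

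Cdh8, another patterned type II cadherin, measured 7.96 and 6.61 in MGE WT and 10.22 and 10.19 in CTX WT. Its log2 difference was -2.92 ± 0.40 (7.59-fold, adjusted p = 3.1e-05), and the 2 MGE arrays themselves were over 2-fold apart. The lower array was replicate 2, without which the difference was -2.25 ± 0.39 (4.75-fold). Cdh11 stood at 9.30 and 9.07 in MGE and 11.43 and 11.52 in CTX, a log2 difference of -2.29 ± 0.21 (adjusted p = 9e-07). Cdh10 also was lower in MGE, by a log2 difference of -1.56 ± 0.22 (adjusted p = 4.2e-05). The groups did not overlap for any of these type II genes, in WT or in KO cultures.

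The other 3 type II genes were higher in MGE. Cdh7 measured 9.50 and 8.43 in MGE WT and 8.01 and 7.93 in CTX WT (log2 difference 1.00 ± 0.32, adjusted p = 0.013). Its KO arrays read 9.55 and 9.44 against 8.09 and 7.71, a log2 difference of 1.59 ± 0.32 (adjusted p = 0.0011). Cdh9, a synaptic adhesion cadherin, differed by 1.13 ± 0.41 in WT (adjusted p = 0.024) and 1.68 ± 0.41 in KO (adjusted p = 0.0039). The WT value was 1.31 ± 0.51 and no longer called without MGE WT replicate 2 (adjusted p = 0.051). Cdh22 differed by 0.82 ± 0.18 and 0.91 ± 0.18 (adjusted p = 0.0015 and 0.0012).

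Among the classical type I genes, Cdh2 was the one called by its highest-mean set, and in WT. Its arrays read 12.28 and 11.25 in MGE WT and 13.13 and 13.42 in CTX WT, a log2 difference of -1.51 ± 0.27 (adjusted p = 3e-04). In KO cultures the MGE arrays read 12.27 and 12.72 against 13.16 and 13.17, -0.67 ± 0.27 (adjusted p = 0.057). MGE WT replicate 2 was the lowest of the 24 arrays for Cdh2, and without it the WT call held (adjusted p = 0.005). All 12 CTX arrays were above all 12 MGE arrays for this set. Other probe sets added calls, the further Cdh2 set being lower in MGE in KO (-0.66 ± 0.23, adjusted p = 0.026). A further set of Cdh4 (R-cadherin) was higher in MGE, by 1.60 ± 0.50 in WT and 1.33 ± 0.50 in KO (adjusted p = 0.012 and 0.039).

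Cdh13 (T-cadherin), which lacks a cytoplasmic tail, was among the most evenly measured members. Its 12 MGE arrays lay between 11.59 and 11.87 and its 12 CTX arrays between 12.69 and 13.07, with no overlap at any time or genotype. The log2 difference at 0 h was -1.09 ± 0.15 in WT and -1.09 ± 0.15 in KO (adjusted p = 2.8e-05 and 4.8e-05). Cdhr1 (protocadherin 21), known from photoreceptors and olfactory bulb neurons, was higher in MGE, at 8.77 and 9.50 against 7.26 and 6.97 (log2 difference 2.02 ± 0.25, adjusted p = 1.5e-05).

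**Figure D2:**
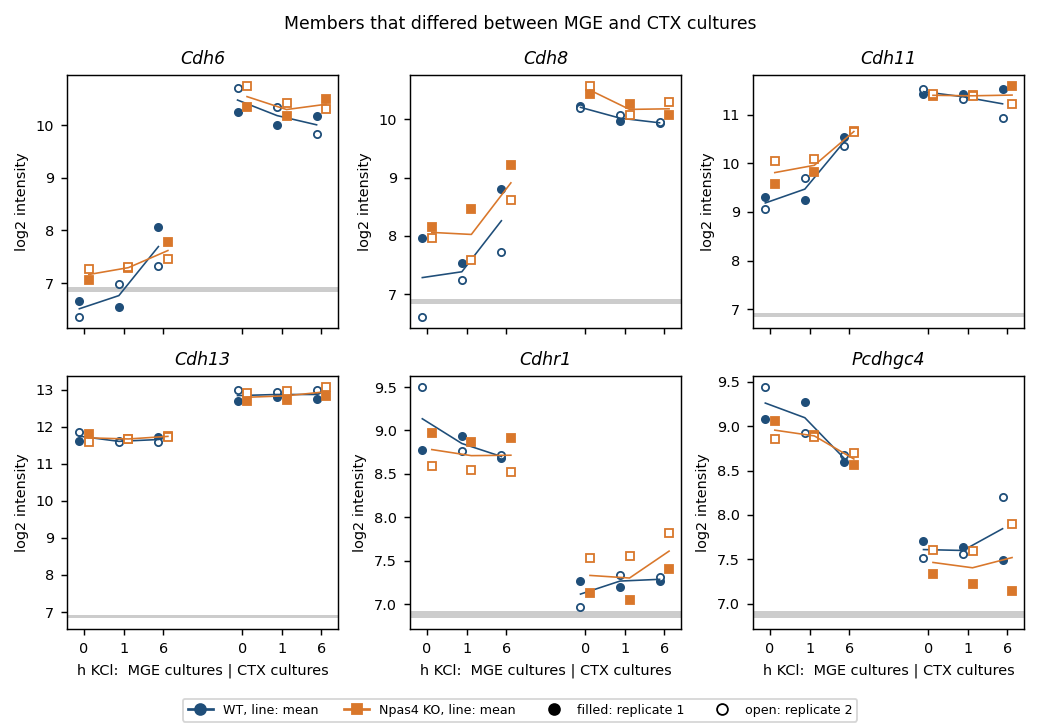
Log2 intensity of 6 members in all 24 arrays by hours of KCl, MGE cultures on the left and CTX cultures on the right of each panel; circles are WT, squares Npas4 KO, filled symbols replicate 1, open symbols replicate 2, lines join group means, and the grey band is the range of the array medians (6.84 to 6.92). MGE and CTX arrays do not overlap for any of the 6, and Cdh13 spans 11.59 to 11.87 in MGE and 12.69 to 13.07 in CTX.

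The delta and other non-clustered protocadherins were less uniform. Pcdh7, a delta-1 gene, was 8.31 and 7.30 in MGE WT and 9.85 and 9.98 in CTX WT (log2 difference -2.12 ± 0.39, adjusted p = 0.00035). Pcdh20 was 6.50 and 5.27 against 8.31 and 8.09 (-2.32 ± 0.51, adjusted p = 0.0013), so in MGE it was below the array median in both arrays. The Pcdh20 value without MGE WT replicate 2 was -1.70 ± 0.58 (4.99-fold before, 3.26-fold after, adjusted p = 0.029). Pcdh17, a delta-2 gene, was higher in MGE at 12.14 and 11.77 against 10.69 and 11.38 (0.92 ± 0.24, adjusted p = 0.0045). Pcdh8 was slightly lower at 12.25 and 11.87 against 12.42 and 12.77 (-0.54 ± 0.18, adjusted p = 0.019), a call lost without MGE WT replicate 2 (-0.35, adjusted p = 0.2).

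Pcdh10 (OL-protocadherin) and Pcdh19 were not called at 0 h by their highest-mean sets. Pcdh10 differed by -0.45 ± 0.33 (adjusted p = 0.24) with overlapping arrays, and Pcdh19 by -0.59 ± 0.26 (adjusted p = 0.06). Further sets of both genes were lower in MGE WT. Those of Pcdh10 gave -1.46 ± 0.37 and -0.81 ± 0.33 (adjusted p = 0.0034 and 0.044) and that of Pcdh19 gave -1.23 ± 0.25 (adjusted p = 0.00074). In the first Pcdh10 set MGE WT read 9.67 and 8.02, replicate 2 being the lower, against 10.11 and 10.51 in CTX WT. In KO cultures no Pcdh10 set was called, and the Pcdh19 set gave -0.71 ± 0.25 (adjusted p = 0.032). The highest-mean set of Pcdh18 was called in KO cultures and not in WT, at 9.95 and 10.45 in MGE and 8.10 and 9.07 in CTX (1.61 ± 0.41, adjusted p = 0.0052). Its further sets were higher in MGE in WT too, by 0.84 ± 0.23 and 0.95 ± 0.28 (adjusted p = 0.0048 and 0.0091). The CTX arrays of replicate 2, whose fibroblast and meningeal markers were higher, also carried the higher Pcdh18 values at 0 h. Among these markers, 1 of 5 tested (Dcn) was lower in MGE WT at 0 h and 0 were higher, and their part in the Pcdh18 difference was not tested. Pcdh12, an endothelial protocadherin, was higher in MGE by 0.81 ± 0.15 (adjusted p = 0.00045) at levels of 6.93 and 7.19, close to the array median. Those were the 2 arrays in which it exceeded the median, so it was tested only through the group where it was high. The 6 endothelial and mural markers averaged 5.60 to 6.10 in all arrays. Of the 3 such markers tested 1 was higher in MGE, and its part in the Pcdh12 difference was not tested.

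The called beta protocadherins were, but for 1 in KO, lower in MGE. In WT cultures 10 of 15 tested were called lower and 0 higher, where 29.5% of all genes were lower and 34.7% higher. The median log2 difference was -0.65 against 0.11 over all genes. Of the 10, Pcdhb5 and Pcdhb14 exceeded the array median only in CTX arrays and so were tested through the cultures where they were higher. Without MGE WT replicate 2, 7 were called lower and 0 higher, and the median was -0.47, against 0.09 over all genes. In KO cultures 8 were lower and 1, Pcdhb4, was higher (median -0.43 against 0.07), where 20.4% of all genes were lower and 26.6% higher. Pcdhb17 showed the widest gap, at 7.98 and 6.20 in MGE WT and 10.02 and 10.45 in CTX WT (log2 difference -3.14 ± 0.47, 8.84-fold, adjusted p = 6.4e-05). It was -2.25 ± 0.42 (4.77-fold) without MGE WT replicate 2. The KO arrays read 7.84 and 8.86 against 10.06 and 10.40 (-1.88 ± 0.47, adjusted p = 0.0047), again without overlap.

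Pcdhb15 measured 6.63 and 4.84 in MGE WT and 7.87 and 7.83 in CTX WT (-2.12 ± 0.39, 4.35-fold, adjusted p = 0.00034), and the value without MGE WT replicate 2 was -1.22 ± 0.25 (2.34-fold). Pcdhb12 measured 6.64 and 5.92 against 8.10 and 8.28 (-1.91 ± 0.22, adjusted p = 6.9e-06). Both were below the array median in every MGE array of that group. Pcdhb5 gave nearly the same difference in both genotypes, -1.61 ± 0.15 in WT and -1.61 ± 0.15 in KO (adjusted p = 1.3e-06 and 2e-06), with MGE arrays between 5.28 and 5.75 at all times. Those are below the array median, and Pcdhb5 was tested only through 11 CTX arrays that exceeded it.

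The remaining called beta genes in WT were Pcdhb7, Pcdhb20, Pcdhb22, Pcdhb19, Pcdhb3 and Pcdhb14, with log2 differences from -1.30 to -0.36. The calls of Pcdhb14, Pcdhb19 and Pcdhb22 were lost without MGE WT replicate 2 (adjusted p = 0.2, 0.26 and 0.17). Pcdhgc4, a C-type gamma exon at the end of the gamma array, went the opposite way to the beta genes. It measured 9.08 and 9.44 in MGE WT against 7.71 and 7.51 in CTX WT (1.65 ± 0.25, adjusted p = 7.6e-05) and differed by 1.49 ± 0.25 in KO.

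The alpha protocadherins are not members, because each of their 6 probe sets is shared by 9 or 14 alpha symbols. Of the 5 that were tested, 3 were higher and 2 lower in MGE WT at 0 h, from -1.98 ± 0.37 to 0.96 ± 0.19. Without MGE WT replicate 2 the first was -1.15 ± 0.24 (adjusted p = 0.0018), and 1 of the 3 higher sets was no longer called (adjusted p = 0.19). Such sets read several alpha genes at once, so no single alpha gene could be followed.

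Across all times and genotypes the culture type remained visible. For 18 of 40 members (45%) the 12 MGE and 12 CTX arrays did not overlap, with CTX above in 13 and MGE above in 5, while 31.7% of all tested genes did not overlap (17.7% with MGE above and 14.1% with CTX above). The 13 were Cdh2, Cdh6, Cdh8, Cdh10, Cdh11, Cdh13, Pcdh7, Pcdh20, Pcdhb5, Pcdhb12, Pcdhb14, Pcdhb15 and Pcdhb17, and the 5 were Cdh7, Cdh22, Cdhr1, Pcdhb4 and Pcdhgc4. Of these, Pcdhb5 and Pcdhb14 passed the filter only through CTX arrays and Pcdhb4 through MGE arrays, the cultures where each was higher. These bulk cultures hold mixed cells, so fewer cells of a type and less RNA per cell cannot be told apart. Without replicate 2 of MGE WT at 0 h, 21 members were called in WT (6 higher, 15 lower), and 15 were called when the fit held only the 2 groups compared. The KO count of 25 became 16 without MGE KO 0 h replicate 1 and 15 without CTX KO 0 h replicate 1.

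Partners of these proteins were compared at rest in WT, where 64.2% of all genes were called. In KO cultures at 0 h, 47% of all genes were called, 54.5% of the catenins and junction partners and 36.4% of the relatives described next. Of 11 tested catenins and junction partners, 4 were higher and 6 lower in MGE (90.9% called), and without MGE WT replicate 2 the counts were 2 and 5. Jup (plakoglobin), which can replace beta-catenin, differed by -3.13 ± 0.29, Ctnnd1 (p120 catenin), which stabilizes cadherins at the membrane, by -2.86 ± 0.51 (-1.89 ± 0.46 without that array), Ctnna1 (alpha-E-catenin) by 1.89 ± 0.34 and the junction scaffold Afdn by -1.37 ± 0.22. Of 11 tested relatives outside the named families 2 were higher and 3 lower (45.5%), led by the large cadherin Fat4 at -2.64 ± 0.20 and the planar polarity cadherin Celsr2 at -1.26 ± 0.17.

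Of 13 tested genes known to control clustered protocadherin choice, 9 were lower and 3 higher in MGE in WT (92.3% called, 69.2% lower against 29.5% of all genes). In KO cultures at 0 h 53.8% of them were called, against 47% of all genes, with 30.8% lower against 20.4%. Without MGE WT replicate 2, 5 were lower and 3 higher. Rest, a neuronal gene silencer, differed by -2.11 ± 0.49, the cohesin release factor Wapl by -2.10 ± 0.32 (-1.46 ± 0.27 without that array), the cohesin subunit Smc3 by -1.92 ± 0.19 and Ctcf, whose sites flank the variable exons, by -1.55 ± 0.14. Among 13 tested downstream and processing partners 2 were higher and 6 lower in WT (61.5%, and 53.8% in KO cultures at 0 h). The kinases Ptk2b and Fyn differed by -2.63 ± 0.33 and -1.56 ± 0.27, the protease Adamts1 by -2.16 ± 0.34 and the actin regulator Wasf1 by -1.35 ± 0.17.

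After 1 h of KCl no member was called in WT cultures of either type, 0 of 40 in each, where 0.574% of all genes were called in MGE (0.388% higher, 0.186% lower) and 0.864% in CTX (0.622% higher, 0.242% lower). At an unadjusted p under 0.05 there was 1 member in MGE and 0 in CTX. The members' log2 differences ran from -0.46 to 0.61 in MGE. Without MGE WT 0 h replicate 1, which leaves replicate 2 as the only baseline, members were called in MGE. The share of all genes called then is not given here.

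After 6 h in MGE WT cultures, 9 of 40 members rose and 1 fell. This was 25% of the members, against 25.3% of all genes, of which 9.53% rose and 15.7% fell. By their highest-mean sets the risers were the type II cadherins Cdh11, Cdh6 and Cdh10 and the beta protocadherins Pcdhb15, Pcdhb22, Pcdhb10, Pcdhb16, Pcdhb12 and Pcdhb19. The median over the members was 0.37 and over all genes -0.05.

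Cdh11 gave the clearest response, from 9.30 and 9.07 at 0 h to 10.55 and 10.35 at 6 h (log2 difference 1.27 ± 0.21, adjusted p = 0.00068). Its KO arrays moved from 9.58 and 10.04 to 10.66 and 10.65 (0.84 ± 0.21, adjusted p = 0.012). In both genotypes the 6 h arrays were above the 0 h arrays. The WT value without MGE WT 0 h replicate 2 was 1.15 ± 0.25 (adjusted p = 0.011).

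Cdh6 rose from 6.67 and 6.36 to 8.07 and 7.32, thus from below to above the array median (1.18 ± 0.25, adjusted p = 0.0041). Without MGE WT 0 h replicate 2 it was 1.03 ± 0.31 (adjusted p = 0.049), and without MGE WT 6 h replicate 1 it was no longer called (adjusted p = 0.082). In KO cultures the change was 0.46 ± 0.25 (adjusted p = 0.27). A further Cdh6 set lay below the array median, between 5.28 and 5.64 in all 4 of these WT arrays, and its difference was 0.08 ± 0.20 (adjusted p = 0.81). Cdh10 rose by 0.76 ± 0.22 in WT (adjusted p = 0.022) and 0.68 ± 0.22 in KO (adjusted p = 0.046). The Cdh10 call in WT was lost without MGE WT 0 h replicate 2 (adjusted p = 0.28), and a different Cdh10 probe set gave -1.11 ± 0.33 in MGE WT, as described with the other probe sets.

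Pcdh12 was the member that fell, from 6.93 and 7.19 to 6.24 and 6.36, thus below the array median (-0.76 ± 0.15, adjusted p = 0.0029). It passed the filter only through the 2 arrays at 0 h, so the high start of this fall was also what admitted it to the test. Of the members with textbook ties to synapses or activity, Cdh2 changed by 0.71 ± 0.27 (adjusted p = 0.069), Pcdh17 by 0.57 ± 0.24 (adjusted p = 0.097), Pcdh10 by 0.16 ± 0.33 (adjusted p = 0.76), Pcdh8 by 0.15 ± 0.18 (adjusted p = 0.59), Pcdh19 by 0.08 ± 0.26 (adjusted p = 0.85) and Cdh13 by -0.09 ± 0.15 (adjusted p = 0.67). None of these 6 passed the threshold in MGE cultures.

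All 15 tested beta protocadherins had a positive log2 difference in MGE WT at 6 h, with a median of 0.67, and 6 of the 15 were called, where 9.53% of all genes rose. Pcdhb16 read 9.40 and 8.40 at 0 h and 9.91 and 9.70 at 6 h (0.91 ± 0.26, adjusted p = 0.019). Pcdhb22 read 7.89 and 7.50, then 8.79 and 8.58 (0.99 ± 0.25, adjusted p = 0.01). Pcdhb15 read 6.63 and 4.84, then 7.04 and 6.65 (1.12 ± 0.39, adjusted p = 0.048) and its 0 h arrays were themselves over 2-fold apart.

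The pattern leaned on that array. Replicate 2 at 0 h was the lower of the 2 for each called beta gene. Without it, 0 of the 6 beta genes were called, Pcdhb22 standing at 0.80 ± 0.30 (adjusted p = 0.11), Pcdhb16 at 0.40 ± 0.22 (adjusted p = 0.29) and Pcdhb15 at 0.22 ± 0.25 (adjusted p = 0.66). All 15 values were still above 0, with a median of 0.23, against -0.05 over all genes. The 15 were read from the same arrays, so their shared sign is not 15 separate observations. The count over all members was 3 without that array (2 higher, 1 lower), 21 without replicate 1 at 0 h and 2 without replicate 1 at 6 h. It was 0 when the fit held only the 2 groups compared.

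KO cultures supplied arrays that do not involve this baseline. There, 2 of 40 members rose at 6 h in MGE (5%, against 17.1% of all genes), Cdh10 and Cdh11, and 14 of 15 beta genes had a positive difference, with a median of 0.40. These signs too come from shared arrays. None of the beta genes was called without a replicate block: Pcdhb10 changed by 0.65 ± 0.25 (adjusted p = 0.093), Pcdhb22 by 0.58 ± 0.25 (adjusted p = 0.13) and Pcdhb16 by 0.55 ± 0.26 (adjusted p = 0.17). Leaving out MGE KO 0 h replicate 1, 6 h replicate 1 or 6 h replicate 2 left 0 calls, and leaving out 0 h replicate 2 left 1. No gene of the 8 cell type marker lists was called at 6 h in MGE cultures of either genotype.

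**Figure D3:**
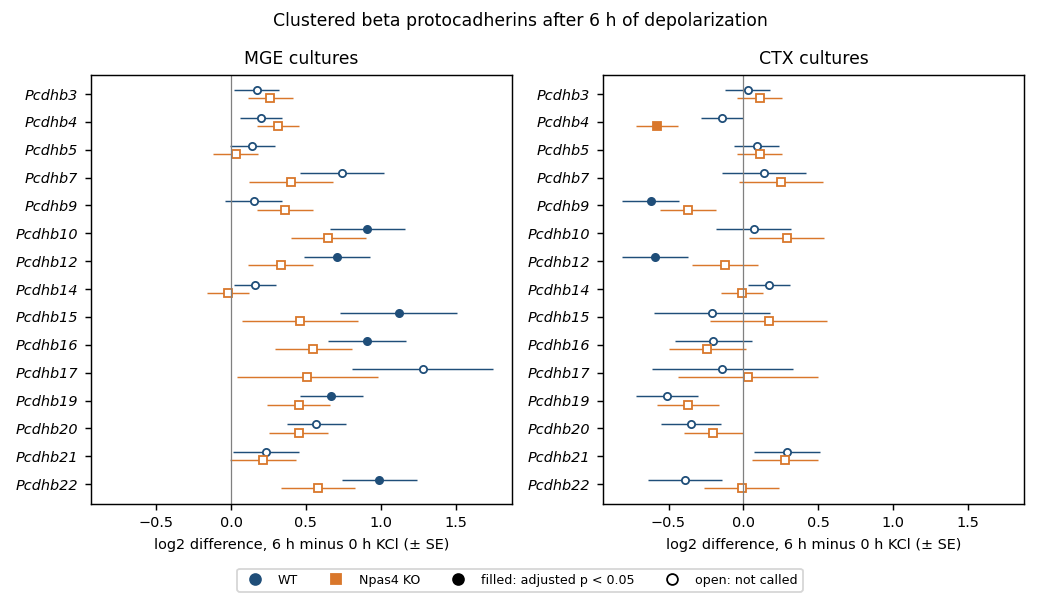
Log2 difference between 6 h and 0 h of KCl for the 15 tested beta protocadherins, in MGE (left) and CTX cultures (right), in WT (circles) and Npas4 KO (squares), 2 against 2 arrays each, with SE; filled symbols have an adjusted p under 0.05. All WT values lie right of 0 in MGE, with a median of 0.67, and scatter around 0 in CTX, where the called ones, Pcdhb9, Pcdhb12 and Pcdhb4, are negative.

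In CTX WT cultures at 6 h, 3 of 40 members rose and 2 fell (12.5%, against 35.2% of all genes, 10.5% up and 24.8% down). The risers were all delta-2 protocadherins, Pcdh18, Pcdh17 and Pcdh8, and the genes that fell were Pcdhb9 and Pcdhb12. In CTX KO cultures 3 rose and 1 fell (10%, against 36.2%). Pcdh17 and Pcdh18 were called in both genotypes, 40% of the WT list and 50% of the KO list, with no such share over all genes given here. Cdh10 and Pcdhb4 were called in KO. CTX arrays of equal number deviated together, and with the replicate number as a block 9 rose and 2 fell in CTX KO, which added Cdh9, Pcdh8, Pcdh9, Pcdh15, Pcdh19, Pcdh20 and Pcdhb9, while the 5 WT calls stayed the same.

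Pcdh18, a delta-2 gene with a part in cell migration, rose from 8.15 and 9.42 at 0 h to 10.89 and 10.50 at 6 h in CTX WT (1.91 ± 0.41, adjusted p = 0.0021). In CTX KO it rose from 8.10 and 9.07 to 10.98 and 10.87 (2.34 ± 0.41, adjusted p = 0.00042). At 1 h the WT arrays still read 8.14 and 9.08. The rise was 2.74 between the WT arrays numbered 1 and 1.08 between those numbered 2, in which the fibroblast and meningeal markers were higher. None of the 5 tested markers of that list was called at 6 h in CTX, and their part in the result was not tested.

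Pcdh17, which sorts axons and synapses in basal ganglia circuits, rose from 10.69 and 11.38 to 12.63 and 12.23 in CTX WT (1.39 ± 0.24, adjusted p = 0.00045). In CTX KO it rose from 10.94 and 11.19 to 12.68 and 12.64 (1.60 ± 0.24, adjusted p = 0.00013). Its CTX level at 6 h thus came within the range of the MGE arrays, 11.77 to 12.74, from which it was separate at 0 h.

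Pcdh8, whose protein drives internalization of Cdh2 at synapses, rose from 12.42 and 12.77 to 13.35 and 13.36 in CTX WT (0.76 ± 0.18, adjusted p = 0.0047). The KO change was 0.49 ± 0.18 (adjusted p = 0.051), from 12.68 and 12.79 to 13.13 and 13.32. Both genotypes had all 6 h arrays above all 0 h arrays. The WT call was lost without CTX WT 0 h replicate 1 (adjusted p = 0.067).

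Pcdhb9 fell from 10.49 and 10.58 to 10.11 and 9.73 in CTX WT (-0.62 ± 0.19, adjusted p = 0.021), and Pcdhb12 from 8.10 and 8.28 to 7.91 and 7.30 (-0.59 ± 0.22, adjusted p = 0.046). Both calls were lost without CTX WT 0 h replicate 1, 0 h replicate 2 or 6 h replicate 2. Leaving out 0 h replicate 1 gave 2 calls over all members, leaving out 0 h replicate 2 gave 3, and a fit with only the 2 groups compared gave 1. In CTX KO, Pcdhb4 fell from 6.84 and 6.72 to 6.39 and 6.00 (-0.58 ± 0.14, adjusted p = 0.0043), and Cdh10 rose by 0.60 ± 0.22 (adjusted p = 0.044). Without CTX KO 6 h replicate 2, the count was 2.

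Cdh2, Cdh13, Pcdh10 and Pcdh19 gave -0.22 ± 0.27, 0.03 ± 0.15, -0.26 ± 0.33 and 0.29 ± 0.26 in CTX WT at 6 h, none called (adjusted p = 0.59, 0.92, 0.61 and 0.44). Several cell type markers did change in these cultures. Of the interneuron list 2 of 6 rose (Sst by 1.34 ± 0.29 and Npy by 0.73 ± 0.22), of the excitatory list 1 of 5 (Fezf2 by 1.36 ± 0.22), and of the progenitor list Sox2 rose by 1.59 ± 0.45 and Hes1 changed by -0.92 ± 0.22. Their part in the protocadherin changes was not tested.

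**Figure D4:**
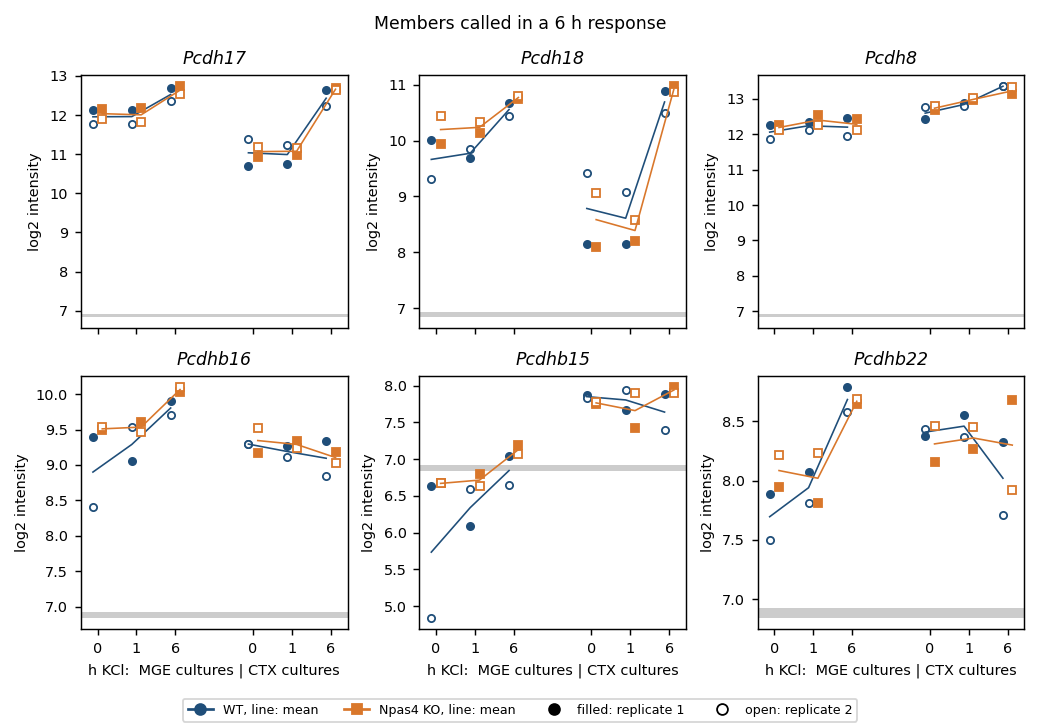
Log2 intensity of 3 delta-2 and 3 beta protocadherins in all 24 arrays by hours of KCl, MGE cultures on the left and CTX cultures on the right of each panel; circles are WT, squares Npas4 KO, filled symbols replicate 1, open symbols replicate 2, lines join group means, and the grey band is the range of the array medians. Pcdh17 and Pcdh18 rise between 1 and 6 h in CTX in both genotypes, and the open circle at 0 h in MGE is the lowest point for Pcdhb15 (4.84) and Pcdhb16 (8.40).

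The starts of the delta-2 genes are shown because 3 of these 5 genes made up the CTX risers. RefSeq (GRCm38.p6) holds promoter windows for 25 of the 61 members, 17 of them tested. The 250 bases before the start are printed for Pcdh8, Pcdh10 and Pcdh17, the delta-2 members whose window ends at the outermost annotated start of the gene. Capitals mark the searched motifs that were found on either strand: ATTGG, which is CCAAT read on the other strand, TGACG, a partial site of the cAMP response element, and TATAAA.
Pcdh8 (chr14:79771313-79771562, minus strand): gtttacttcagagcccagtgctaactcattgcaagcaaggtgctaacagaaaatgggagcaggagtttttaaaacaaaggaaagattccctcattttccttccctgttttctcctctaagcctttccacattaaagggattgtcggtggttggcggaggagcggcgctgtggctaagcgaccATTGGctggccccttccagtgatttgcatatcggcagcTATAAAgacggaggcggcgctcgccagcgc
Pcdh10 (chr3:45378148-45378397, plus strand): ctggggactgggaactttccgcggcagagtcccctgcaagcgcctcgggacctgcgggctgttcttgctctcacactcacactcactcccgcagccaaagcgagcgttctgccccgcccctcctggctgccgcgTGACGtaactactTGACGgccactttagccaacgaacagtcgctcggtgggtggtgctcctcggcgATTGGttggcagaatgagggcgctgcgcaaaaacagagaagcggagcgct
Pcdh17 (chr14:84443313-84443562, plus strand): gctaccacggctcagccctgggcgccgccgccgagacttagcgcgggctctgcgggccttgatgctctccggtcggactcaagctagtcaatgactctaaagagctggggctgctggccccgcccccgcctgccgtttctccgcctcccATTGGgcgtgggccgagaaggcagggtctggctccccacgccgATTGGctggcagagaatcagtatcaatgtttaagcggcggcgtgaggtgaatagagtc

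CCAAT, the box bound by the factor NF-Y, occurred in all 3 windows and also in those of Pcdh18 and Pcdh19. It lay in a window of 12 of the 17 tested members, against 33.8% of 32536 windows of the same length. TATAAA was found at position -30 of Pcdh8 and for 2 of the 17 members, against 12.3%. The partial site TGACG began at positions -116 and -103 from the start of Pcdh10, for 3 of the 17 members and in 17.9% of all windows. The full element TGACGTCA, which contains it, and the AP-1 site TGANTCA were found for 0 of the 17, against 1.56% and 6.73%, and TCGTG, the core of the Npas4 motif, for 2 of the 17, against 13.4%. CCAAT and TATAAA were added to the search after the sequences had been seen. A match of these letters is a description of the window.

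Other probe sets widened the group of delta protocadherins with a 6 h change in CTX. The 18 tested members with several usable sets had 29 further sets. In CTX WT at 6 h 12 of the 29 rose and 1 fell, that is 41.4% up against 20.3% of all such sets on the array, and the 12 belonged to 9 genes, Cdh6, Pcdh7, Pcdh8, Pcdh9, Pcdh10, Pcdh11x, Pcdh17, Pcdh18 and Pcdh20. In CTX KO 13 rose and 2 fell (44.8% up against 21.8%). In MGE WT 5 rose and 1 fell (17.2% up against 14.9%), and in MGE KO 6 rose (20.7% up against 9.5%). A gene with several sets had several chances to be called.

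For Pcdh7 the further set went in CTX WT from 9.15 and 8.81 at 0 h to 11.38 and 10.55 at 6 h, a log2 difference of 1.99 ± 0.27 (adjusted p = 5.3e-05), while the highest-mean set gave 0.71 ± 0.39 (adjusted p = 0.19). For Pcdh10 one set read 8.75 and 9.06, then 10.88 and 11.25 (2.16 ± 0.33, adjusted p = 0.00014), whereas the highest-mean set gave -0.26 ± 0.33. The same Pcdh10 set rose in MGE WT by 1.11 ± 0.33 (adjusted p = 0.025) and in CTX KO by 2.45 ± 0.33 (adjusted p = 4.3e-05). Not all further Pcdh10 sets rose in CTX WT, a different one going from 7.20 and 7.44 at 0 h to 6.82 and 7.34 at 6 h. So the call for these genes depended on which probe set was read.

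Both further sets of Pcdh9, a delta-1 gene, rose in CTX WT (1.28 ± 0.24 and 1.23 ± 0.32) against 0.16 ± 0.19 for the highest-mean set. Pcdh8, Pcdh11x and Pcdh20 each had a further set that rose in both CTX genotypes, in WT by 1.59 ± 0.38, 1.07 ± 0.39 and 1.13 ± 0.36. The 2 further sets of Pcdh18 rose in MGE too, by 1.37 ± 0.23 and 1.89 ± 0.28 in WT and by 1.41 ± 0.23 and 2.22 ± 0.28 in KO, where the highest-mean set gave 0.90 ± 0.41 and 0.58 ± 0.41. Both sets were below the array median at 0 h, between 5.35 and 6.70 in the MGE arrays.

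Cdh10 showed opposite directions within a gene. In CTX WT one of its sets went from 8.94 and 8.98 at 0 h to 6.13 and 5.96 at 6 h (-2.91 ± 0.33, adjusted p = 9.3e-06) and fell in CTX KO as well (-2.51 ± 0.33), while the highest-mean set gave 0.12 ± 0.22 and 0.60 ± 0.22. Positions of the probe sets in the transcripts were not used here. In WT at 0 h, 19 of the 29 further sets differed between MGE and CTX, 65.5% against 62.6% of all such sets. That difference also depended on the set for Pcdh9, with 1.17 and -0.94 for its further sets and 0.02 for the highest-mean one.

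**Figure D5:**
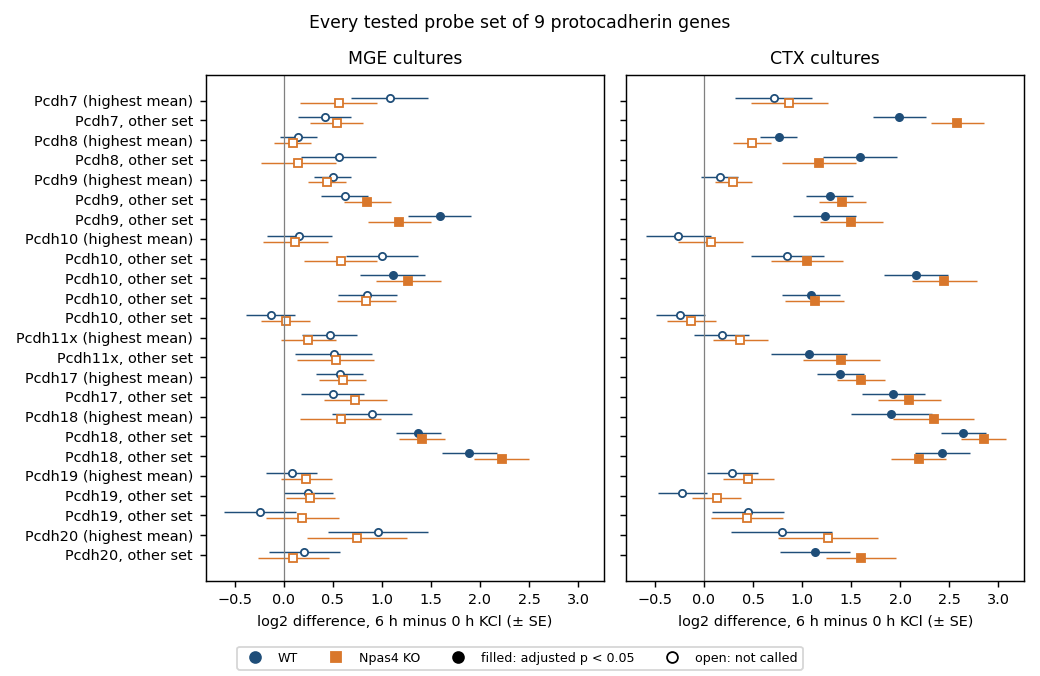
Log2 difference between 6 h and 0 h of KCl for every tested probe set of 9 non-clustered protocadherins, in MGE (left) and CTX cultures (right), in WT (circles) and Npas4 KO (squares), 2 against 2 arrays each, with SE; filled symbols have an adjusted p under 0.05 over 22694 probe sets. In CTX the further sets of Pcdh7 (1.99 in WT) and Pcdh9 and some of those of Pcdh10 (up to 2.16 in WT) rise where the highest-mean sets stay near 0 or are not called. All 3 sets of Pcdh18 rise.

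The response to 6 h of KCl was then compared directly between culture types in WT. In this test 5 of 40 members responded differently, all more positively in MGE (12.5%, against 10.9% of all genes, 6.99% more positive in MGE and 3.92% less). They were Cdh6 (difference of the 2 responses 1.65 ± 0.36, adjusted p = 0.01), Cdh11 (1.52 ± 0.29, adjusted p = 0.0052), Pcdhb22 (1.38 ± 0.35, adjusted p = 0.023), Pcdhb12 (1.30 ± 0.30, adjusted p = 0.015) and Pcdhb19 (1.18 ± 0.29, adjusted p = 0.02). Over the 15 beta genes the median was 0.84, against 0.07 over all genes. It was 0.43 without MGE WT 0 h replicate 2, with 12 of 15 above 0 and 0 called. The further Cdh11 set was not called in this test, while the mean over both Cdh11 sets kept the call. The Cdh6 result held for 1 of its 2 probe sets. The further set rose in CTX WT by 0.92 ± 0.20 (adjusted p = 0.0021), its difference of responses was -0.84 ± 0.28 (adjusted p = 0.066), and the mean over the sets gave 0.41 ± 0.28 (adjusted p = 0.36). The responses of Pcdh17 and Pcdh18, called in CTX and not in MGE, were not shown to differ (-0.82 ± 0.34, adjusted p = 0.13, and -1.01 ± 0.58, adjusted p = 0.26), nor was that of Pcdh8 (-0.62 ± 0.26, adjusted p = 0.13).

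Without MGE WT 0 h replicate 2 the count was 2, Cdh11 and Cdh6. It was 16 without MGE WT 0 h replicate 1, 10 without CTX WT 6 h replicate 1, 2 without MGE WT 6 h replicate 1 or CTX WT 6 h replicate 2, and 1, Cdh11, without CTX WT 0 h replicate 2. A fit with only the groups of this comparison gave 0.

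The 4 partner lists held 27.3%, 9.09%, 7.69% and 15.4% of called genes in MGE WT at 6 h (catenins, relatives, regulators and downstream partners), against 25.3% of all genes. In CTX WT the shares were 9.09%, 36.4%, 30.8% and 15.4%, against 35.2%. In MGE WT the rises were Ctnna2 (alpha-N-catenin) by 0.52 ± 0.16, Pkp4 by 0.27 ± 0.08, Clstn3 by 0.41 ± 0.13, Nckap1 by 0.27 ± 0.08 and Adamts1 by 2.21 ± 0.34, and the falls were Arvcf at -0.68 ± 0.22 and the DNA methyltransferase Dnmt3b at -1.22 ± 0.13. Adamts1 (2.29 ± 0.43) and Dnmt3b (-1.27 ± 0.16) were the 2 partners called without MGE WT 0 h replicate 2. In CTX WT, the synaptic calsyntenin Clstn3 rose by 0.93 ± 0.13, the giant cadherin Fat1 by 0.69 ± 0.17, Vcl (vinculin) by 0.73 ± 0.23 and Adamts1 by 1.17 ± 0.34. Celsr2, Celsr3 and Ptk2b fell there, at -0.49 ± 0.17, -0.31 ± 0.09 and -0.89 ± 0.33.

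Of the 13 regulators of the clustered genes, 0 rose and 4 fell in CTX WT, that is 30.8% lower against 24.8% of all genes. Dnmt3b, which methylates clustered promoters, stood at -2.19 ± 0.13, Smchd1, a silencer of the clusters, at -1.01 ± 0.24, the histone methyltransferase Setdb1 at -0.86 ± 0.25 and the cohesin subunit Stag1 at -0.44 ± 0.09. The same 4 fell in CTX KO. Dnmt3b fell more in CTX than in MGE WT, the difference between the responses being 0.97 ± 0.19 (adjusted p = 0.0054).

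Loss of Npas4 changed no member past the threshold. KO and WT were compared at each time in each culture type, as an average over all groups, and as a difference between 6 h responses, and limma called 0 of 40 in each of these 9 comparisons. The share of all genes called was 0% in MGE and CTX at 0 h and for the difference between MGE responses, 0.0242% and 0.00808% in MGE and CTX at 1 h, 0.0323% and 0.0485% at 6 h, 0.00808% for the difference between CTX responses and 0.0727% for the average. In the difference between MGE responses Npas4 itself was not called either (-1.76 ± 0.35, adjusted p = 0.58), so that comparison could miss a sizeable effect. At an unadjusted p under 0.05 there were 8, 4 and 2 members in MGE at 0, 1 and 6 h, 0, 0 and 1 in CTX, 0 and 1 for the differences between responses, and 11 for the average.

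In the MGE comparison at 0 h all 8 of these were higher in KO. They were Pcdhb17 (1.26 ± 0.47), Pcdhb15 (0.94 ± 0.39), Cdh2 (0.73 ± 0.27), Cdh6 (0.65 ± 0.25), Pcdhb12 (0.64 ± 0.22), Cdh11 (0.63 ± 0.21), Pcdhb16 (0.61 ± 0.26) and Pcdhb20 (0.44 ± 0.20), each at an adjusted p of 0.23. This comparison shares the MGE WT 0 h arrays with the 6 h response in MGE WT and with the comparison of MGE and CTX WT. Without replicate 2 of that group the 8 differences ran from 0.02 ± 0.16 (Pcdhb20) to 0.52 ± 0.25 (Cdh11). Without replicate 1, which leaves replicate 2 as the only baseline, members were called higher in KO. The share of all genes called then is not given here.

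In the average over times and culture types 33 of 40 members had a positive KO minus WT difference, with a median of 0.12 against -0.02 over all genes. The members share these arrays, so their signs are not separate observations. The largest difference was that of Pcdhb17 at 0.58 ± 0.19 (adjusted p = 0.18). The beta gene with the smallest unadjusted p was Pcdhb12 (0.32 ± 0.09, adjusted p = 0.18). Without MGE WT 0 h replicate 1 members were called in the average, and the share of all genes called then is not given here. The activity response of the CTX delta-2 genes was present in KO cultures, with log2 differences of 1.60 for Pcdh17 and 2.34 for Pcdh18, and its difference from WT was not called for either.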

How the data were processed

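RNA for the 24 arrays had been amplified from 100 ng and hybridised to Affymetrix mouse genome arrays, per the labels, which do not give the number of separate cultures. The deposited values are linear intensities of 45101 probe sets, normalised by the authors with RMA, per the submitters' processing notes, with no version given. Their log2 was taken here. Of the probe sets 34958 name 1 gene, 932 several and 9211 none in the platform annotation, which can be old. Each of 18194 genes was read from its highest-mean probe set. Genes above the array median (intensity 115 to 121) in at least 2 arrays were tested, 12378 in all.

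Limma 3.58.1 (R 4.3.3) fitted 12 group means to all 24 arrays, with 12 residual degrees of freedom, no covariates and Benjamini-Hochberg adjustment over all tested genes in each of 18 comparisons. A second fit covered 22694 single-symbol probe sets. On simulated data for the CTX WT comparison of 6 h with 0 h, with 200 of 12378 genes changed, 94% of those changed by a log2 of 2 and 70% of those changed by 1 were called. There were 17 false calls. The simulated noise was independent between arrays, with no pairing by number and no array standing apart, so these rates need not hold for the real comparisons. The number of arrays limits the precision. The members, gene lists and named genes were chosen with earlier results of these data known, and the rule gave full statistics to at most 8 called members in each direction per comparison, taken by size of change, to Cdh2, Cdh13, Pcdh8, Pcdh10, Pcdh17 and Pcdh19 whether called or not, and to at most 4 called genes of each partner list. Further probe sets, and other members given with values, were chosen after their values were seen. The omission of MGE WT 0 h replicate 2 for partner genes and alpha sets was added after the data were seen. Equal replicate numbers were checked for pairing: the correlation of deviations passed 0.1 in 15 of 15 CTX pairs of groups (0.11 to 0.71, median 0.37), so that CTX arrays pair by number. It passed 0.1 in 13 of 15 MGE pairs (median 0.61). The exceptions both held MGE WT 0 h, at -0.23 with MGE WT 1 h and -0.19 with MGE KO 0 h, so numbers did not pair throughout MGE. The fit without a block, set in the design, was kept, and blocked values are given where they change a count by over 1.5 times.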

Additional observations from a re-analysis of the deposited data

Results flagged for a closer look

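The 6 h response to KCl in WT cultures differed between MGE and CTX for 5 members by a direct test of the difference between responses (limma). The values, MGE minus CTX on the log2 scale, were 1.65 for Cdh6, 1.52 for Cdh11, 1.38 for Pcdhb22, 1.30 for Pcdhb12 and 1.18 for Pcdhb19. These are values of the highest-mean sets, and the further set of Cdh11 was not called. Cdh11 kept its call when each array was left out in turn, with a highest adjusted p of 0.027. Cdh6 lost it without CTX WT 0 h replicate 2 (adjusted p = 0.057), its other probe set gave -0.84 ± 0.28 (adjusted p = 0.066) and the mean over both sets 0.41 ± 0.28 (adjusted p = 0.36), and the beta genes lost it without several arrays, MGE WT 0 h replicate 2 among them.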

How the results depend on the processing

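Of 143 counts of called members under alternative settings, leaving out arrays aside, 131 stayed within 1.5 times the reported count. Of 930 alternative values of the 77 called differences, 1 changed sign and 160 were no longer called. With only the compared groups in the fit, which leaves fewer residual degrees of freedom, the counts were 15 for MGE against CTX in WT at 0 h, 0 for MGE WT at 6 h, 1 for CTX WT at 6 h, 1 for MGE KO at 6 h and 0 for the difference between WT responses. With the mean over all probe sets of a gene, 8 members were called in CTX WT and 9 in CTX KO at 6 h, and Cdh10 in CTX KO became -0.19. With no filter, 1 was called in MGE KO at 6 h. With the replicate block the counts at 6 h were 17 in MGE WT, 8 in MGE KO (1 beta gene, Pcdhb10), 11 in CTX KO and 10 for the difference between WT responses (5 beta genes). The unblocked calls all held there. In MGE the numbers did not pair throughout, the exceptions being pairs of groups with MGE WT 0 h. A crossed pairing, added after seeing the data, gave 0 calls for MGE WT at 1 h and for KO against WT in MGE at 0 h. The cause of these changes was not tested.

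Leaving out each array in turn gave 21 to 28 calls for MGE against CTX in WT and 15 to 19 in KO, 0 to 8 in MGE WT at 1 h, 2 to 21 in MGE WT at 6 h, 2 to 6 in CTX WT at 6 h, 0 to 1 in MGE KO at 6 h, 2 to 5 in CTX KO at 6 h and 1 to 16 for the difference between WT responses. It gave 0 to 15 for KO against WT in MGE at 0 h, 0 to 1 for the difference between MGE responses and 0 to 13 for the average over groups. Where an omission left 1 array in a group, that array was assumed to vary like the other groups. The shares of all genes called in these omissions and with the replicate block are not given here. The member counts alone therefore do not show whether members changed more often than other genes. Probe sets near the array median carry little signal over background, which limits the low beta protocadherins.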

Other observations

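Among the 5 tested probe sets shared by several alpha protocadherins, 2 were called in MGE WT at 6 h, with log2 differences of 1.25 ± 0.37 (adjusted p = 0.028) and 0.71 ± 0.18 (adjusted p = 0.013). Without MGE WT 0 h replicate 2, an omission chosen after seeing the data, neither was called (0.42 ± 0.24, adjusted p = 0.34, and 0.52 ± 0.21, adjusted p = 0.15). In KO cultures the second was called at 0.82 ± 0.18 (adjusted p = 0.0073) and the first, at 0.38, was not (adjusted p = 0.65). These sets belong to no single gene.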
